A study of Mus musculus with 2 samples.

Results

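Marginal zone B cells are innate-like B cells that line the marginal sinus of the spleen, carry high levels of the complement receptor CR2 (CD21) and little of the IgE receptor CD23, and depend on signals through the receptor NOTCH2. When NOTCH2 binds a Delta-like ligand on a neighboring cell, its intracellular part is cut free, joins the DNA-binding protein RBPJ in the nucleus and switches on target genes such as Hes1 and Dtx1. Genes known from marginal zone cells or from this pathway were followed in myocardial B cells. They were Notch2, the receptor; Hes1 and Dtx1, target genes; Cd1d1, which encodes the lipid-presenting molecule CD1d; S1pr3, a receptor for sphingosine-1-phosphate; Cd36, a class B scavenger receptor; Plac8, a small cysteine-rich protein; and Myof, the ferlin family protein myoferlin.

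These 8 members were chosen by name from the 31053 genes of the deposited count tables, and all 8 had at least 50 UMIs over both libraries, a UMI being the tag by which 1 captured mRNA molecule is counted. Live B cells were sorted by flow cytometry from hearts of naive C57BL6/J mice at 2 ages on 1 day, and each age gave 1 droplet library. The neonatal library (2 weeks) pooled males and females, and the adult library (8 weeks) held males, so age and library cannot be told apart, and sex differed in part. Of the neonatal cells, 1279 had a UMI of a Y-linked gene and none of Xist. Against these alone, the adult cells gave log2 ratios of -1.22 for Hes1 and -1.18 for Cd36. Against all neonatal cells the values were -1.31 and -1.10. An effect of sex was not tested. Each library pooled the hearts of 6 mice, held in 2 tubes with 3 hearts in each. A droplet was used as a B cell when it held at least 2000 gene UMIs, at most 10% mitochondrial UMIs and a UMI of Cd79a, a subunit of the B cell receptor complex. This left 2077 neonatal and 3611 adult cells. Every cell thus holds Cd79a by selection. The B cell marker genes Cd79b, Ms4a1, Pax5 and Cd22 were also detected in both libraries. Platelet markers summed to 7 and 18 UMIs and heart muscle and fibroblast markers to 31 and 69 UMIs. Macrophage and monocyte markers summed to 7179 and 16185 UMIs, of which Ctss gave 5566 and 15518. Endothelial markers summed to 2305 and 4085 UMIs, of which Pecam1 gave 2243 and 4027, and neutrophil markers to 411 and 0.

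The neonatal cells held 16403180 UMIs with a median of 6000 per cell, and the adult cells 34623240 UMIs with a median of 6131. The quartiles were 4958 and 8204 UMIs for neonatal cells and 4170.5 and 11137 UMIs for adult cells, so adult depths were more spread out. Droplets of at least 500 UMIs shared 110 barcodes between the libraries, and 61 neonatal and 45 adult B cells sat at these barcodes. Levels are CPM, the UMIs of a gene summed over the cells and scaled to a total of 1000000 UMIs. With 1 library per age there was no test, and every interval in brackets is a 95% interval that covers counting error only. The intervals are exact for levels and ratios of levels. For shares of cells and pairs of members they are approximate, since the counts there are averages. A member was called different when its level differed at least 2-fold. The libraries were made from the 3' ends of transcripts. Levels were compared within a gene and not between genes.

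Before the levels, the stretches upstream of Cd36 and Cr2 are shown because they carry the 6-base core of the RBPJ binding sequence, searched as TGGGAA on both strands (TTCCCA on the other) in the 250 bases before each annotated start. The sequences are RefSeq's, from assembly GRCm38.p6, and 6 of the 8 members were matched; Hes1 and Cd1d1 were not. The word was present upstream of 1 of those 6 members, Cd36, beginning 43 bases before the start at chr5:17835897-17836146 (minus strand). Of the 2 genes that set the cell groups used below, Fcer2a held it upstream of 2 of its 3 annotated starts, which are not printed, and Cr2 held it upstream of its start, beginning 220 bases before the start at chr1:195176720-195176969 (minus strand). Capitals mark the word, and the runs are written 5′ to 3′ and end at the base before the start.
Cd36: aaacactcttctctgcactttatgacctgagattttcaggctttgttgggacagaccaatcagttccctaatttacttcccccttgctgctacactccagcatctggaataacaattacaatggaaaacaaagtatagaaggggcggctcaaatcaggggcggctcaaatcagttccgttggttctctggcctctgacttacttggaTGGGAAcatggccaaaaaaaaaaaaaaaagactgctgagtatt
Cr2: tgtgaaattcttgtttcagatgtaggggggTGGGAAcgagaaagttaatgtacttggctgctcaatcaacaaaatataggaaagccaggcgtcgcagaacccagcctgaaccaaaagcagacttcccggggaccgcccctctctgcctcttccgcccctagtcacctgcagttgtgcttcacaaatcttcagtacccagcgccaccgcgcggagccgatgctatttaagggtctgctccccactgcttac
The word is short, and 21.6% of the 32851 promoters in the table held it in the same 250 bases. The annotated Cd36 gene spans chr5:17781690-17888801, so the printed start is not its only one, and which start these cells used was not measured. A match says only that these letters are there.

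The levels of Notch2 were close in the 2 libraries while its target Hes1 was lower in adult cells. Notch2 (chr3:98013527-98150361 of GRCm38, plus strand) stood at 55.5 CPM (51.9 to 59.2) in neonatal and 53.5 CPM (51.1 to 56.0) in adult cells, a log2 ratio of adult over neonatal of -0.05 (-0.17 to 0.06). Hes1, a transcriptional repressor (chr16:30064384-30067796), stood at 36.4 CPM (33.5 to 39.4) in neonatal and 14.7 CPM (13.5 to 16.0) in adult cells, 2.48-fold lower in the adult library. Dtx1, an E3 ubiquitin ligase that modulates Notch signaling (chr5:120680202-120711927), went the other way, from 13.8 CPM (12.0 to 15.7) to 20.2 CPM (18.7 to 21.7), a log2 ratio of 0.55 (0.33 to 0.77). The 2 target genes therefore differed in opposite directions between the libraries, with Notch2 itself between them. The 2 genes Gm42819 and Gm42820 are annotated inside Notch2 on its own strand. How reads that match them and Notch2 were counted is not known.

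Among the other members, Cd36 and Plac8 were lower in adult cells and Cd1d1 differed little. Cd36 stood at 40.3 CPM (37.3 to 43.5) in neonatal and 18.8 CPM (17.4 to 20.3) in adult cells, 2.14-fold lower in the adult library. Plac8 (chr5:100553725-100572245) stood at 1210 CPM (1194 to 1227) and 815 CPM (806 to 825), a log2 ratio of -0.57 (-0.60 to -0.54), and with 19854 and 28225 UMIs it had by far the most UMIs of the members. Cd1d1 (chr3:86995834-86999441) stood at 21.8 CPM (19.6 to 24.1) and 19.6 CPM (18.2 to 21.1), a log2 ratio of -0.15 (-0.34 to 0.04). Its near-identical copy Cd1d2 has no entry under that name in the deposited count tables. How reads that match both genes were counted is not known, so the level of Cd1d1 is uncertain. S1pr3 and Myof had few UMIs. S1pr3 (chr13:51408639-51422797) had 56 and 72 UMIs, with a log2 ratio of -0.72 (-1.24 to -0.18), and 1 neonatal cell with 10 UMIs held 17.9% of its neonatal UMIs. Myof (chr19:37899036-38043577) had 26 and 70 UMIs, with a log2 ratio of 0.35 (-0.32 to 1.06).

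At the 2-fold limit, 0 of the 8 members were higher and 2 were lower in adult cells, Hes1 and Cd36, where 3.25% of the 10703 genes with at least 50 UMIs were higher and 3.96% lower. The median log2 ratio of the members was -0.36, beside -0.13 for all genes tested. Relative to that median of all genes, the log2 ratios were -1.18 for Hes1, -0.97 for Cd36, -0.58 for S1pr3, -0.44 for Plac8, -0.02 for Cd1d1, 0.08 for Notch2, 0.48 for Myof and 0.68 for Dtx1. On that scale Cd36 fell short of 2-fold and Notch2 changed sign, and no other member did either. For comparison, Cr2 stood at 27.4 CPM in neonatal and 121 CPM in adult cells (log2 ratio 2.14) and Fcer2a, which encodes CD23, at 171 and 279 CPM (log2 ratio 0.71), so Cr2 and the members did not differ in 1 common direction.

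**Figure D1:**
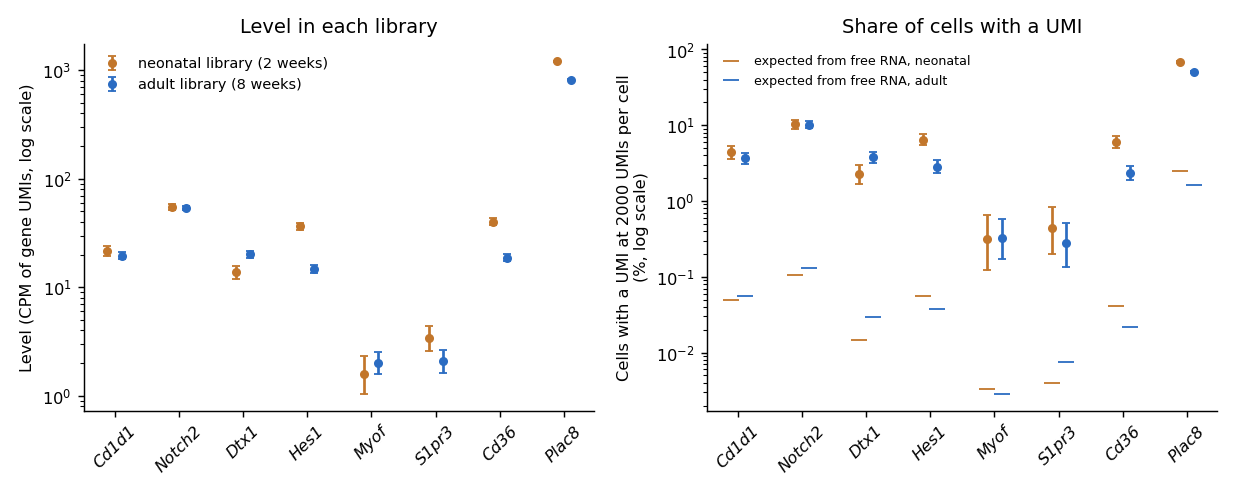
Level of each member in CPM (left) and share of cells with at least 1 UMI after each cell is brought to 2000 UMIs (right), both on log axes, in the neonatal and adult library. Bars are 95% counting intervals, exact for levels and approximate for shares, and dashes the share that free RNA would give. Hes1 and Cd36 stand at 36.4 and 40.3 CPM in neonatal and at 14.7 and 18.8 CPM in adult cells, and the Notch2 intervals overlap.

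The share of cells with a UMI followed the levels. Brought to 2000 UMIs per cell, as the average over all ways of drawing them, 10.3% (8.99 to 11.6) of neonatal and 10.2% (9.22 to 11.2) of adult cells had a Notch2 UMI. Hes1 was found in 6.43% (5.41 to 7.57) and 2.84% (2.32 to 3.43), and Cd36 in 6.03% (5.05 to 7.14) and 2.34% (1.87 to 2.89). Dtx1 was found in 2.25% (1.66 to 2.98) of neonatal and 3.76% (3.17 to 4.44) of adult cells, the only member of the 8 with a higher share in adult cells whose interval did not overlap. Plac8 was found in 69.2% (67.2 to 71.2) and 50.8% (49.1 to 52.4). Cd1d1 shares were 4.39% and 3.66%, Myof shares 0.314% and 0.329%, and S1pr3 shares 0.438% and 0.277%. As sequenced, shares were higher: a Notch2 UMI was present in 30.5% of neonatal and 33.3% of adult cells, and a Plac8 UMI in 88.6% and 72.0%. Free RNA, taken from droplets of 10 to 100 UMIs, would give a Plac8 UMI in 2.46% of neonatal and 1.65% of adult cells at 2000 UMIs, and at most 0.130% for any other member. Droplets without Cd79a but with at least 3 T or NK cell markers, 3 neonatal and 4 adult ones with medians of 5939 and 7430 UMIs, held UMIs of Plac8 alone among the members, 5 in 1 droplet and 2 in 1 droplet.

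Several macrophage markers were lower in adult cells, as Hes1 and Cd36 were. Of the 12 macrophage and monocyte markers, 8 had at least 50 UMIs. Of these, 6 were at least 2-fold lower in adult cells, beside 3.96% of all genes tested. Lyz2 had 1123 UMIs in 32 neonatal cells and 210 UMIs in 15 adult cells. The list summed to 438 and 467 CPM, of which Ctss, which B cells also make, was 339 and 448 CPM. The 32 neonatal cells with Lyz2 held 2.69% of all UMIs but 12.9% of the Cd36 UMIs and 8.04% of the Hes1 UMIs. Without the cells with Lyz2 in both libraries, the log2 ratio was -0.96 for Cd36, short of 2-fold, and -1.25 for Hes1. A set of 4 neonatal droplets without Cd79a and with at least 3 macrophage markers detected held 30 Hes1 UMIs and 21 Cd36 UMIs, and the adult library had 0 such droplets. The part of macrophage RNA in the Hes1 and Cd36 differences was not tested.

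**Figure D2:**
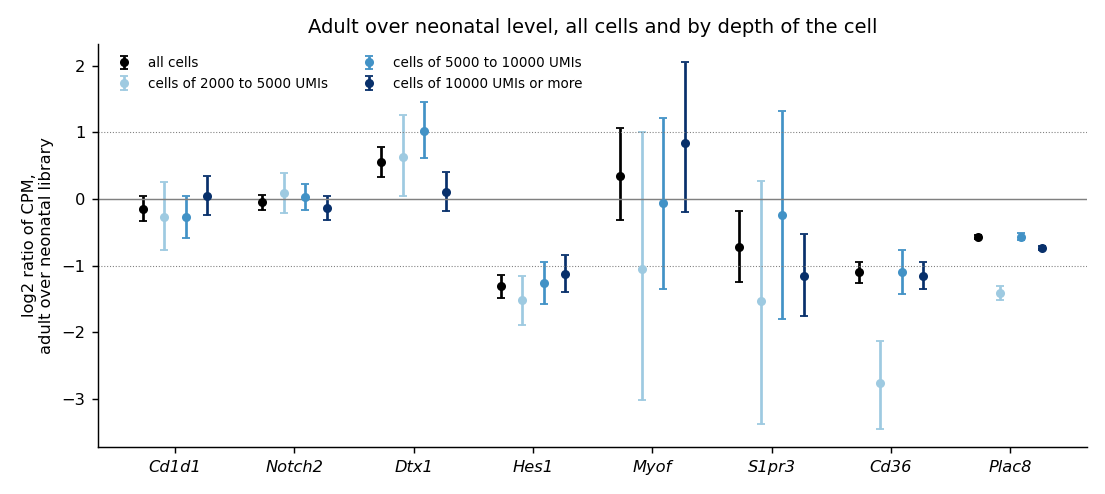
Log2 ratio of CPM, adult over neonatal library, for each member over all cells (black) and over cells of 2000 to 5000, 5000 to 10000 and at least 10000 UMIs (light to dark blue); bars are exact 95% counting intervals and dotted lines mark 2-fold. Hes1 lies between -1.52 and -1.13 at every depth, whereas Cd36 reaches -2.77 in the shallowest cells.

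Levels of Plac8, and of Cd36 in adult cells, went up with the UMI total of the cell, and those of Notch2 did not. In adult cells of 2000 to 5000, 5000 to 10000 and at least 10000 UMIs, Plac8 stood at 247, 622 and 1047 CPM, and in neonatal cells at 659, 922 and 1747 CPM. Cd36 stood at 4.79, 14.4 and 24.4 CPM in the same adult cells and at 32.6, 30.8 and 54.1 CPM in the neonatal cells. Hes1 ran the other way, at 58.0, 36.7 and 28.2 CPM in neonatal and 20.2, 15.3 and 12.9 CPM in adult cells. Notch2 stayed between 50.9 and 59.1 CPM in all 6 of these groups of cells. At matched depth, Hes1 remained at least 2-fold lower in adult cells, with log2 ratios of -1.52, -1.26 and -1.13 from the shallowest to the deepest cells. Cd36 was lower by log2 ratios of -2.77 (-3.45 to -2.13), -1.10 (-1.43 to -0.77) and -1.15 (-1.35 to -0.95). Plac8 was past 2-fold in the shallowest cells alone, at -1.42 (-1.52 to -1.31). Dtx1 was higher in adult cells by 0.63 and 1.02 in the shallower bins, and by 0.11 (-0.18 to 0.40) in cells of at least 10000 UMIs.

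The cells were then split into 4 groups by at least 1 UMI of Cr2 and of Fcer2a, the transcripts of CD21 and CD23. Marginal zone cells of the spleen are CD21-high and CD23-low, so Cr2+Fcer2a- is the group nearest to them by transcript, although a missing UMI is not a missing transcript. The group needs 1 Cr2 UMI and not a high level. In adult cells Cr2 stood at 186 CPM (171 to 202) in Cr2+Fcer2a- and 193 CPM (186 to 199) in Cr2+Fcer2a+ cells. In neonatal cells the values were 166 CPM (142 to 195) and 117 CPM (104 to 131). The neonatal library held 1032 Cr2-Fcer2a-, 702 Cr2-Fcer2a+, 223 Cr2+Fcer2a+ and 120 Cr2+Fcer2a- cells, and the adult library 649, 1260, 1372 and 330. The groups differed in depth: median UMIs ran from 5566.5 in Cr2-Fcer2a- to 7163 in Cr2+Fcer2a+ neonatal cells, and from 4602.5 in Cr2-Fcer2a+ to 9083 in Cr2+Fcer2a+ adult cells.

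Plac8, the member with the most UMIs and so the narrowest intervals, differed between the adult groups. It stood at 1206 CPM in Cr2-Fcer2a-, 635 CPM in Cr2-Fcer2a+, 736 CPM in Cr2+Fcer2a+ and 1155 CPM in Cr2+Fcer2a- adult cells, so both groups without Fcer2a were above both groups with it. In neonatal cells the values were 1418, 934, 1193 and 1193 CPM in the same order. Between Cr2+Fcer2a- and Cr2+Fcer2a+ the log2 ratio was 0.65 (0.60 to 0.70) in adult cells and -0.00 (-0.10 to 0.10) in neonatal cells. A single neonatal Cr2+Fcer2a+ cell held 202 of the 2976 Plac8 UMIs of that group, and the ratio without that cell was not taken. Within adult cells of 2000 to 5000, 5000 to 10000 and at least 10000 UMIs the log2 ratio was 0.46, 0.83 and 0.79, so the adult difference was present at each depth. In neonatal cells it was 0.38 (-0.12 to 0.89), 0.39 (0.22 to 0.57) and 0.08 (-0.05 to 0.21), so the value near 0 over all neonatal cells did not hold in cells of 5000 to 10000 UMIs.

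Over all depths, Notch2 was highest in cells with Fcer2a. In neonatal cells it stood at 45.7 CPM in Cr2-Fcer2a-, 64.7 CPM in Cr2-Fcer2a+, 70.2 CPM in Cr2+Fcer2a+ and 41.1 CPM in Cr2+Fcer2a- cells, and in adult cells at 42.1, 57.1, 55.7 and 48.5 CPM. The neonatal intervals of both groups with Fcer2a lay above 58.1 CPM and those of both groups without it below 56.2 CPM. Between Cr2+Fcer2a- and Cr2+Fcer2a+ the log2 ratio was -0.77 (-1.31 to -0.26) in neonatal and -0.20 (-0.45 to 0.05) in adult cells. Within depth the neonatal ratio was -1.16 (-3.27 to 0.59), -0.45 (-1.22 to 0.27) and -1.15 (-2.15 to -0.29) from the shallowest to the deepest cells. It was below 0 throughout, but its interval excluded 0 in the deepest cells alone. The adult ratio was -0.19 and 0.38 (-0.08 to 0.82) in the shallower bins and -0.54 (-0.91 to -0.20) in cells of at least 10000 UMIs. In adult cells of 5000 to 10000 UMIs Notch2 was highest in Cr2+Fcer2a- cells, at 69.3 CPM. Hes1 stood in neonatal cells at 43.1, 29.6, 26.9 and 47.4 CPM from Cr2-Fcer2a- to Cr2+Fcer2a-, a log2 ratio of Cr2+Fcer2a- over Cr2+Fcer2a+ of 0.82 (0.24 to 1.39). Hes1 was lower in deeper cells, and within depth that ratio was 0.71 (-0.66 to 2.14), 1.47 (0.49 to 2.48) and -0.23 (-1.46 to 0.83). In neonatal cells of at least 10000 UMIs all 4 groups lay between 24.0 and 29.9 CPM. In adult cells Hes1 stood between 13.3 and 18.4 CPM in all 4 groups, and that log2 ratio was -0.01 (-0.52 to 0.46).

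**Figure D3:**
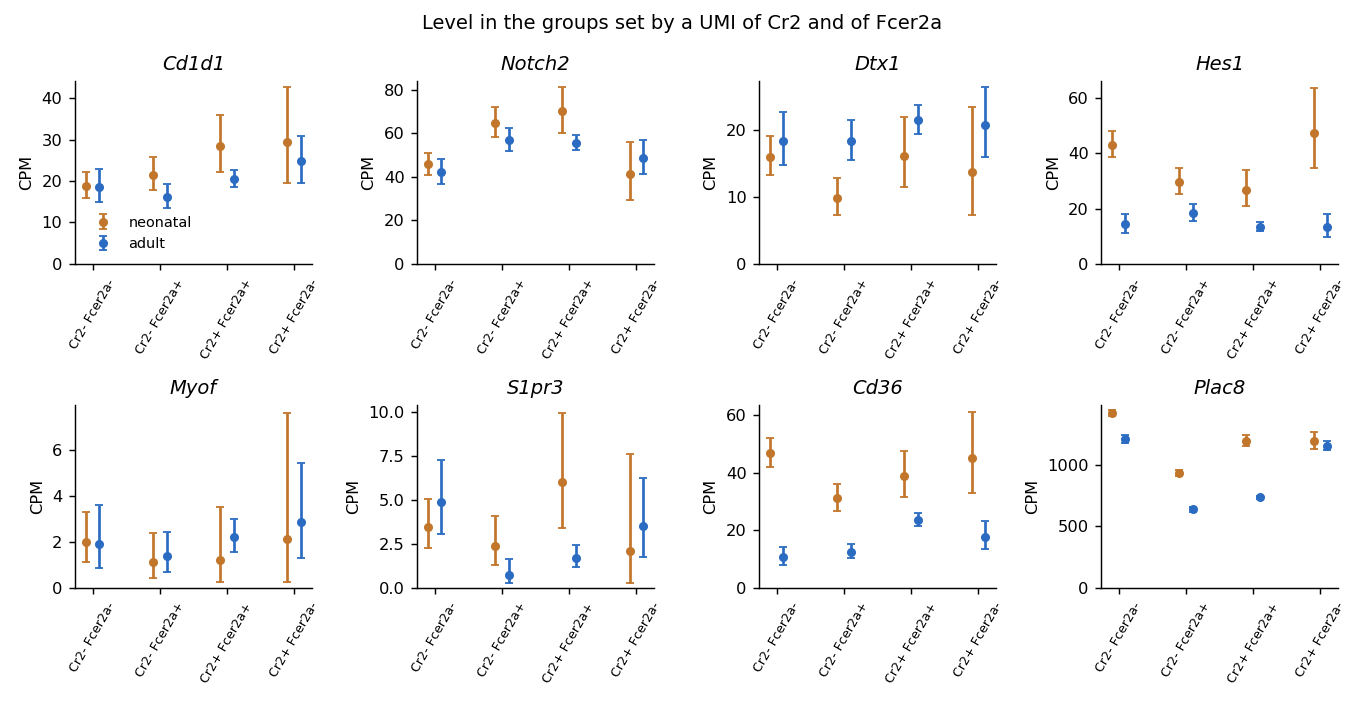
Level of each member (CPM, linear axes from 0, a scale per panel) in the 4 groups of cells set by at least 1 UMI of Cr2 and of Fcer2a, in the neonatal and adult library, with exact 95% counting intervals. Notch2 is highest in the groups with Fcer2a, Plac8 is lowest in adult Cr2-Fcer2a+ cells, at 635 CPM, and neonatal Hes1 lies above adult Hes1 in every group.

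Cd36 followed different groups at the 2 ages. In adult cells it stood at 10.7 CPM (8.00 to 14.1) in Cr2-Fcer2a-, 12.6 CPM in Cr2-Fcer2a+, 23.7 CPM (21.6 to 26.0) in Cr2+Fcer2a+ and 17.8 CPM in Cr2+Fcer2a- cells. In neonatal cells it stood at 46.8, 31.1, 38.9 and 45.3 CPM. Cr2+Fcer2a+ over Cr2-Fcer2a- gave a log2 ratio of 1.14 (0.72 to 1.59) in adult and -0.27 (-0.61 to 0.06) in neonatal cells. Since Cd36 went up with depth in adult cells and Cr2+Fcer2a+ cells were the deepest, the ratio was also taken within depth: it was 0.08 (-1.49 to 1.63), 0.76 (-0.27 to 1.97) and 0.98 (0.46 to 1.54) from the shallowest to the deepest adult cells. At matched depth each value was therefore short of 2-fold, only just so in the deepest cells. Every one of these intervals spans 2-fold, so they do not settle whether the ratio reached it. The shallower bins rested on few UMIs, 8 and 9 in the shallowest and 55 and 9 in the next.

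Taken over all depths, levels of Cd1d1 and Dtx1 stayed within 2-fold between the groups of each library, but not within every range of depth. Cd1d1 ran from 18.7 to 29.5 CPM in neonatal and from 16.2 to 24.8 CPM in adult cells, with the highest value in Cr2+Fcer2a- cells of both libraries, but its log2 ratio of Cr2+Fcer2a- over Cr2+Fcer2a+ was 0.05 (-0.63 to 0.70) and 0.27 (-0.10 to 0.63). Its log2 ratio of Cr2+Fcer2a+ over Cr2-Fcer2a- was 0.60 (0.17 to 1.02) in neonatal and 0.15 (-0.19 to 0.50) in adult cells. Within depth that neonatal ratio was -1.43 (-6.77 to 1.14), 0.51 (-0.20 to 1.18) and 1.15 (0.49 to 1.83) from the shallowest to the deepest cells. The shallowest value rested on 1 UMI in Cr2+Fcer2a+ cells, and the deepest cells were past 2-fold. Dtx1 ran from 9.75 to 16.0 CPM in neonatal and from 18.3 to 21.4 CPM in adult cells. Its neonatal low was in Cr2-Fcer2a+ cells, where it was also furthest from the adult level, by a log2 ratio of 0.91 (0.44 to 1.39). The log2 ratio of Cr2-Fcer2a+ over Cr2-Fcer2a- for Dtx1 was -0.71 (-1.21 to -0.23) in neonatal and -0.004 (-0.40 to 0.40) in adult cells. Within depth the neonatal Dtx1 ratio was -1.26 (-3.26 to 0.29), -1.27 (-2.23 to -0.39) and -0.21 (-0.87 to 0.43) from the shallowest to the deepest cells. Myof had 2 to 15 UMIs in the neonatal and 9 to 41 UMIs in the adult groups, too few to order them.

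S1pr3 transcripts were few in every group. In adult cells S1pr3 had 23, 6, 32 and 11 UMIs from Cr2-Fcer2a- to Cr2+Fcer2a-, or 4.84, 0.746, 1.71 and 3.49 CPM, and in neonatal cells 26, 13, 15 and 2 UMIs. Its log2 ratio of Cr2+Fcer2a- over Cr2+Fcer2a+ was 1.03 (-0.11 to 2.05) in adult and -1.51 (-4.68 to 0.59) in neonatal cells, and both intervals include 0. Its log2 ratio of Cr2+Fcer2a+ over Cr2-Fcer2a- was -1.50 (-2.32 to -0.66) in adult and 0.80 (-0.22 to 1.77) in neonatal cells. Its largest adult ratio was that of Cr2-Fcer2a+ over Cr2-Fcer2a- cells, -2.70 (-4.29 to -1.36), from 6 and 23 UMIs.

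Counted at 2-fold, 1 of the 8 members was higher in adult Cr2+Fcer2a- than in adult Cr2+Fcer2a+ cells, S1pr3, and 0 were lower. Among the 9559 genes with at least 50 UMIs over these groups, 1.52% were higher and 2.42% lower. In neonatal cells the same comparison gave 0 higher, beside 0.262%, and 1 lower, again S1pr3, beside 1.11%. S1pr3 had 11 and 32 UMIs in the adult groups and 2 and 15 UMIs in the neonatal ones. It therefore fell below the 50 UMIs that these shares require and is not among the genes they cover. Adult Cr2+Fcer2a+ over Cr2-Fcer2a- cells gave 1 member higher, Cd36, and 1 lower, S1pr3. The shares under the same UMI minimum, which S1pr3 met here with 32 and 23 UMIs, were 1.60% and 1.43%. In neonatal cells that comparison gave 0 higher and 0 lower, beside 0.329% and 1.80%. These counts are over all depths. Within depth, Cd1d1, Hes1 and Notch2 passed 2-fold in that neonatal comparison with intervals that excluded 0, each in a single range of depth. Cd1d1 stood at 1.15 (0.49 to 1.83) in cells of at least 10000 UMIs and Hes1 at -1.32 (-2.16 to -0.57) in cells of 5000 to 10000 UMIs. Notch2 stood at 1.21 (0.14 to 2.14) in cells of 2000 to 5000 UMIs. Plac8, at -0.71 over all adult cells, stood at -0.66 (-0.89 to -0.44) in adult cells of 2000 to 5000 UMIs. It passed 2-fold in adult cells of 5000 to 10000 UMIs, at -1.20 (-1.31 to -1.09). In adult cells of at least 10000 UMIs it was also past 2-fold, at 850 beside 1765 CPM. Other marginal zone genes were not uniform across these groups either: adult Cr2+Fcer2a- over Cr2+Fcer2a+ cells gave log2 ratios of 1.05 for Cd9, a tetraspanin, 0.88 for Fcrl5, an Fc receptor-like protein, and -0.97 for Cnr2, a cannabinoid receptor. Mzb1 and S1pr1 lay nearer to 0, at 0.27 and -0.25. The neonatal log2 ratios were -0.00 for Cd9, 1.07 (-0.15 to 2.27) for Fcrl5, -0.16 for Cnr2, 0.05 for Mzb1 and -0.02 for S1pr1.

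**Figure D4:**
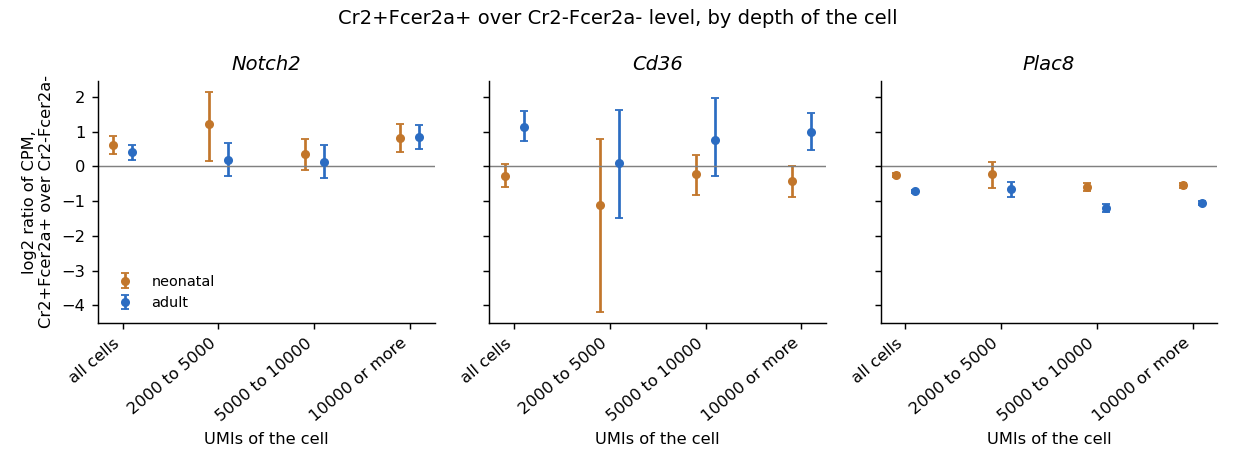
Log2 ratio of CPM in Cr2+Fcer2a+ over Cr2-Fcer2a- cells for Notch2, Cd36 and Plac8, over all cells and within 3 ranges of UMIs per cell, in the neonatal and adult library; bars are exact 95% counting intervals. Plac8 lies below 0 throughout, and adult Cd36 goes from 0.08 in the shallowest to 0.98 in the deepest cells.

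The Cr2 and Fcer2a groups also differed in cells with B1 markers. B1 cells are the other innate-like B cell class, and cells with UMIs of at least 2 of 8 B1 markers (Cd5, Spn, Itgam, Bhlhe41, Zbtb32, Ctla4, S100a6 and Cd9) after 1 random draw of 2000 UMIs numbered 105 neonatal and 282 adult cells. Cd9 also counted above as a marginal zone gene, so a cell with Cd9 and 1 other marker need not be a B1 cell. How far Cd9 set the shares below was not tested. Cells with at least 2 of these markers made up 15.8% of adult Cr2+Fcer2a- and 14.6% of Cr2-Fcer2a- cells, beside 6.78% of Cr2+Fcer2a+ and 3.33% of Cr2-Fcer2a+ cells. In the neonatal library they made up 0.833% of Cr2+Fcer2a- and 6.98% of Cr2-Fcer2a- cells. Plac8 stood at 1498 CPM in these adult cells and 703 CPM in the other adult cells, and at 2164 and 1092 CPM in neonatal cells. Cd36 stood at 26.3 and 17.6 CPM in adult and at 75.8 and 35.9 CPM in neonatal cells. S1pr3 stood at 4.11 and 1.75 CPM in adult cells, and at 14.4 and 2.06 CPM in neonatal cells, where its 26 UMIs came from 7 cells and the value was 9.05 CPM without the cell with 10 UMIs. Cd1d1 was lower in such cells, at 14.0 beside 20.5 CPM in the adult library. These cells were also deeper, with medians of 15185 and 14176 UMIs in the neonatal and adult library beside 5896 and 5609 UMIs in the others. Without the cells with B1 markers, the adult log2 ratio of Cr2+Fcer2a- over Cr2+Fcer2a+ was 0.59 (0.53 to 0.66) for Plac8, 0.75 (-0.69 to 1.97) for S1pr3 and -0.95 (-1.56 to -0.40) for Cd36. That of Cr2+Fcer2a+ over Cr2-Fcer2a- was 1.11 (0.63 to 1.64) for Cd36, -0.47 (-0.52 to -0.41) for Plac8 and -0.83 (-1.88 to 0.32) for S1pr3. In neonatal cells S1pr3 then stood at -0.46 (-2.24 to 1.005) for Cr2+Fcer2a+ over Cr2-Fcer2a-, where it had been above 0, and at -0.03 (-3.42 to 2.58) for Cr2+Fcer2a- over Cr2+Fcer2a+.

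Within each group, Hes1 and Cd36 were lower in adult cells. Hes1 log2 ratios of adult over neonatal were -1.59 in Cr2-Fcer2a-, -0.69 in Cr2-Fcer2a+, -0.999 in Cr2+Fcer2a+ and -1.83 in Cr2+Fcer2a- cells, and those of Cd36 were -2.12, -1.31, -0.71 and -1.35, with every interval below 0. Plac8 was lower in adult cells by -0.23, -0.56 and -0.70 in the first 3 groups and stood at -0.05 (-0.14 to 0.05) in Cr2+Fcer2a- cells. Dtx1 was above 0 in all 4 groups, but its interval excluded 0 in Cr2-Fcer2a+ cells alone. Notch2 intervals included 0 in 3 groups, and in Cr2+Fcer2a+ cells its log2 ratio was -0.33 (-0.56 to -0.09).

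At the median pair, the members were found together in the same cell about as often as their separate shares would give, with wide intervals for pairs without Plac8. Brought to 2000 UMIs per cell, 12 pairs of members had at least 5 expected cells among neonatal and 11 among adult cells, and the median ratio of cells with both members to the number expected was 1.03 (range 0.95 to 1.40) and 1.02 (range 0.74 to 1.47). Every interval of these ratios included 1 except that of Cd36 with Plac8 in adult cells, found together in 57.2 cells where 42.9 were expected, a ratio of 1.33 (1.01 to 1.72). The neonatal ratio of that pair was 1.17 (0.96 to 1.41). Notch2 and Hes1 were found together in 14.0 neonatal cells where 13.7 were expected, a ratio of 1.02 (0.56 to 1.71). In adult cells they were found together in 7.73 cells where 10.4 were expected, a ratio of 0.74 (0.31 to 1.47). With intervals this wide, a moderate excess or deficit of such pairs could not be seen. Without bringing cells to 1 depth, the median ratios were 1.20 over 20 pairs and 1.57 over 26 pairs. Depth then differs between cells, and its part in these higher ratios was not tested.

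**Figure D5:**
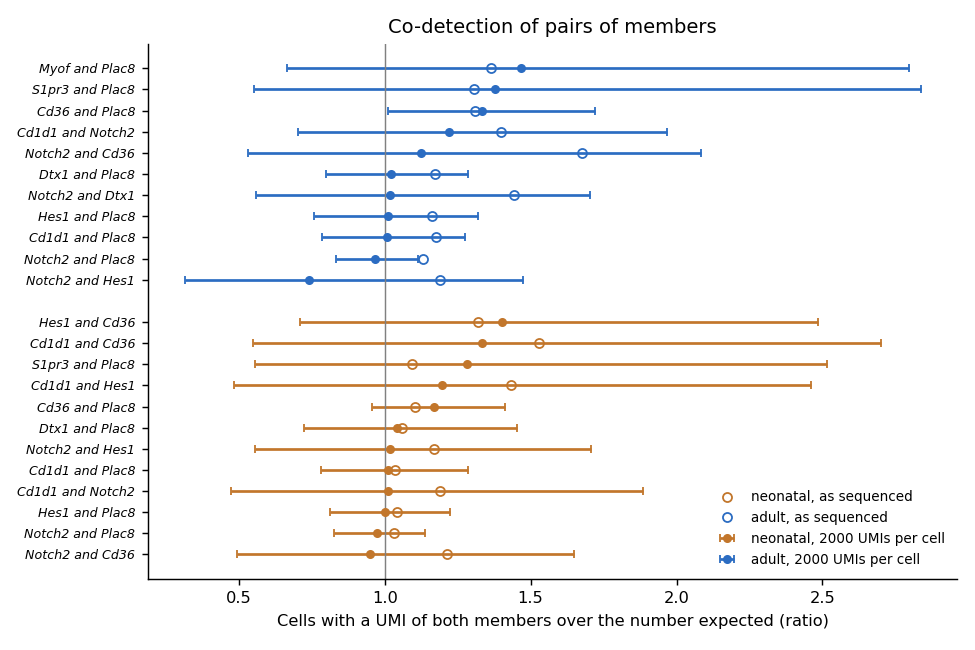
Ratio of cells with a UMI of both members of a pair to the number expected from their separate shares, for pairs with at least 5 expected cells at 2000 UMIs per cell (filled, with approximate 95% counting intervals) and as sequenced (open), in the neonatal and adult library. The filled points center on 1.03 and 1.02, and the open points of adult cells lie mostly to the right of them.

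At 2000 UMIs per cell, 19.7% (18.0 to 21.5) of neonatal and 12.1% (11.0 to 13.2) of adult cells had UMIs of at least 2 of the 8 members. Most of these held Plac8: without it, at least 2 of the other 7 were found in 3.25% (2.53 to 4.10) and 1.86% (1.45 to 2.36) of cells. The share with at least 2 of 8 ran from 17.4% in Cr2-Fcer2a+ to 21.2% in Cr2-Fcer2a- neonatal cells, and from 9.96% in Cr2-Fcer2a+ to 15.8% in Cr2+Fcer2a- adult cells. Of the 7 members without Plac8, at least 2 were found in 2.19% (0.902 to 4.42) of adult Cr2+Fcer2a- and 2.04% (1.36 to 2.94) of adult Cr2+Fcer2a+ cells, with overlapping intervals.

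The rest of the Notch pathway was examined through a list of 57 genes, which includes Notch2, Dtx1, Hes1 and Cr2, and 46 of them had at least 50 UMIs. In adult cells 2 were at least 2-fold higher, Cr2 and Dtx4, and 3 were lower, Hes1, Hes5 and Notch1, and the median log2 ratio was -0.25, beside 3.25% higher, 3.96% lower and a median of -0.13 over all genes tested. Notch1, the receptor best known from T cell development, stood at 16.1 CPM in neonatal and 6.85 CPM in adult cells (log2 ratio -1.23), Hes5, another repressor of the Hes family, had 44 and 34 UMIs (log2 ratio -1.45), and Dtx4 had 7 and 52 UMIs (log2 ratio 1.82). Notch ligands were nearly absent from these B cells: Dll1 had 5 and 38 UMIs, Dll4 8 and 0, Jag1 2 and 1, Jag2 15 and 5, and Dll3 0 in both; Notch4 had 5 and 9 UMIs and Notch3 0 in both. A count of 0 allows up to 3 UMIs in a library of these depths.

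None of the 17 genes listed for processing of the receptor or its ligands differed 2-fold. The 3 furthest from 0 were Mib1, which promotes ligand uptake (log2 ratio -0.54), Lfng, a sugar transferase that tunes the choice of ligand (-0.47), and Furin, the protease of the first cut (-0.43). Taok3, a kinase linked to the surface level of ADAM10 in marginal zone precursors, stood at 97.7 and 78.2 CPM, and Adam10 at 51.0 and 42.9 CPM. Of the 13 genes of the nuclear complex and its corepressors, 0 differed 2-fold, with Kat2a (-0.63), Maml1 (-0.56) and Cir1 (-0.48) furthest from 0, and Rbpj stood at 30.4 and 30.8 CPM. Of the 8 inhibitors with enough UMIs, Dtx4 alone was past 2-fold, followed by Dtx2 (-0.86) and Dtx3 (-0.70). Of the 7 target genes with enough UMIs, Cr2, Hes5 and Hes1 were past 2-fold, and of the other target genes Hey1 had 1 UMI in each library, Hey2 0 and 3, and Heyl 0 in both.

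Other marginal zone markers were mixed. Of 14 tested, 3 were at least 2-fold higher in adult cells, Cr2, Fcrl5 (7.62 and 21.5 CPM, log2 ratio 1.498) and Zc3h12c (log2 ratio 1.08), and S1pr1, which draws B cells out of tissue toward blood, was lower (359 and 178 CPM, log2 ratio -1.01), beside 3.25% higher and 3.96% lower of all genes tested. Of 21 regulators of the choice between marginal zone and follicular fate, Id2, an inhibitor of E proteins, was higher (31.3 and 66.0 CPM, log2 ratio 1.08) and Irf4 (192 and 68.0 CPM, log2 ratio -1.50) and Klf3 (141 and 61.3 CPM, log2 ratio -1.20) were lower, and the median was -0.04.

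The families of the members were given in full. Of the sphingosine-1-phosphate receptors, S1pr4 was also lower in adult cells (81.6 and 34.9 CPM, log2 ratio -1.23), and S1pr2 and S1pr5 had 12 and 16 and 9 and 3 UMIs. Of the CD1d genes, B2m, the light chain of CD1d, stood at 988 and 1250 CPM (log2 ratio 0.34), the lipid-handling proteins Psap and Npc2 had log2 ratios of -0.30 and -0.29, Mttp 0.23 and Ap3b1 0.01. Cd1d2 had no entry, and 0 of the 6 CD1d genes with an entry differed 2-fold. Of the other ferlins, Dysf had 5 and 2 UMIs, Otof 1 and 0, Fer1l5 0 and 3, and Fer1l4 and Fer1l6 0 in both. Of the other class B scavenger receptors, Scarb1 had a log2 ratio of -0.73 and Scarb2 of -0.30.

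Genes whose levels followed each member over the 8 groups of cells (4 groups in each of 2 libraries) were looked up among 8083 genes with at least 100 UMIs in each library, by Pearson's r of log2(CPM + 1). The 8 points share libraries, depth and cell selection, so r is a description. Notch2 was followed most closely by Kpna1 (r = 0.96), Jade1 (0.96) and Edrf1 (0.96), Hes1 by Rrbp1 (0.99), Eif4ebp1 (0.99) and Hnrnpf (0.99), and Dtx1 by Pnkd (0.99), Arhgap18 (0.95) and Ei24 (0.93). Cd1d1 was followed by Nomo1 (0.95), Eif2b5 (0.94) and Cpox (0.93), Cd36 by Eif3c (0.99), Mybbp1a (0.99) and Ilk (0.98), and Plac8 by Pepd (0.99), Tnni2 (0.98) and Atf3 (0.97). Myof and S1pr3 had too few UMIs for this. None of the genes named was itself a member.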

How the data were processed

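Myocardial B cells of 1 neonatal and 1 adult library were captured by 10x droplets. The authors deposited raw UMI counts per gene and barcode, made with Cell Ranger (version 3.0.2 in the file headers; the Methods name a later one) on genome build mm10 per the labels; the annotation release is not given in the sources used here, and 99.6% of gene identifiers matched GENCODE vM21. The deposited tables hold 26866958 neonatal and 49500780 adult gene UMIs. Their 3 antibody rows held 3 and 2 UMIs in all and were not used. Here, counts were summed over cells and expressed as CPM with exact Poisson and conditional binomial 95% intervals (Python 3.11.15, scipy 1.17.1). Clopper-Pearson 95% intervals were used for shares and co-detection. They took averaged counts and, for co-detection, a fixed expected number, so they are approximate. Shares and co-detection were computed at 2000 UMIs per cell as the average over all draws without replacement, since single draws varied; only B1 markers and 1 alternative grouping used 1 draw. The calculations were tested on simulated data. No doublet caller was run; the authors gated doublets out at sorting. Members, lists and tests were chosen with earlier results of these data known. Named genes are the members, Cr2, Fcer2a, Cd79a, the 3 furthest from 0 in each list, whole member families and the 3 genes most like each member with at least 100 UMIs per library. Cd9, Fcrl5, Mzb1, Cnr2, Taok3, Adam10, Rbpj, Lyz2 and Ctss were added after their values were seen. A B cell marker and an alternative that requires it are not reported here. How reads that match overlapping genes were assigned was not checked.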

Additional observations from a re-analysis of the deposited data

Results flagged for a closer look

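A group of 6 values was singled out because a member differed in opposite directions between the same groups of cells at the 2 ages, with at least 1 of the ages past 2-fold. The difference between the ages was not tested, since each age has 1 library. The log2 ratio of Cr2+Fcer2a+ over Cr2-Fcer2a- cells was 1.14 for Cd36 in adult cells and -0.27 in neonatal cells. For S1pr3 the same log2 ratio was -1.50 in adult cells and 0.80 in neonatal cells. The log2 ratio of Cr2+Fcer2a- over Cr2+Fcer2a+ cells was 1.03 for S1pr3 in adult cells and -1.51 in neonatal cells. In the neonatal library S1pr3 rested on 15 UMIs in Cr2+Fcer2a+ cells, 10 of them in 1 cell, and on 2 UMIs in Cr2+Fcer2a- cells. Without the cells with at least 2 B1 markers, the first S1pr3 ratio was -0.83 in adult cells and -0.46 (-2.24 to 1.005) in neonatal cells, no longer in opposite directions, and the second was 0.75 in adult cells and -0.03 (-3.42 to 2.58) in neonatal cells. For Cd36 the values without them were 1.11 and -0.50.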

How the results depend on the processing

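Each age has 1 library, so no library could be left out. No paired analysis was possible because the ages share no replicates. Levels rest on few UMIs for Myof and S1pr3, and a limit of 5% mitochondrial UMIs left 60 neonatal and 156 adult cells, where 23 of the Notch pathway genes had enough UMIs. Hes1 stayed at least 2-fold lower in adult cells under all 16 alternatives, with log2 ratios from -1.38 to -1.07. The number of members at least 2-fold lower, 2, ran from 1 to 4 over the 16 alternatives, and 4 of them moved it to 1 or 4. Among these, it was 1 with median-of-ratios scaling and with a minimum of 5000 UMIs, where Cd36 stood at -0.97 and -0.94. It was 4 without droplets with 3 UMIs of any list of other cell types, a setting that left 1091 neonatal and 1443 adult cells because Ctss and Pecam1 count in those lists. With both genes left out of the lists, an alternative chosen after seeing the data, it was 2, with S1pr3 at -1.01 and Cd36 at -0.96. At 5% mitochondrial UMIs, 1 member was at least 2-fold higher, Dtx1 at 1.86. The median log2 ratio of the members, -0.36, was -0.23 with median-of-ratios scaling and -0.23 at 5% mitochondrial UMIs, -0.49 as a mean over cells and, the same by construction, with cells thinned to 2000 UMIs, and -0.73 without droplets with other markers. The 5 Notch pathway genes past 2-fold were between 4 and 6 in number. The 1 member higher in adult Cr2+Fcer2a- cells, S1pr3, became 0 without a mitochondrial limit, at 5%, and with groups from thinned cells. Without droplets with other markers the 1 member was Cd1d1, at 1.15 beside 0.27, and Cd1d1 stood at -0.36 with groups from thinned cells. The log2 ratio of Cd36 in that comparison, -0.42, was 0.068 with at least 2 UMIs for a positive cell and 0.59 with groups from thinned cells, and that of Plac8, 0.65, was -0.21 at 5% mitochondrial UMIs. The cause was not tested. The share of cells with at least 2 members, 19.7% in neonatal and 12.1% in adult cells, was 55.0% and 46.4% as sequenced and 8.27% and 4.53% at 1000 UMIs. In adult cells it was 15.2% with a minimum of 5000 UMIs and 9.14% without droplets with other markers. Median co-detection ratios ran from 0.96 to 1.20 in neonatal and from 1.001 to 1.57 in adult cells.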

Other observations

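Markers of other B cell classes and of other cell types, read with the same limits, put the member values in context. Of 6 transitional B cell markers, 3 were at least 2-fold lower in adult cells, Sox4 (log2 ratio -1.68), Vpreb3 (-1.10) and Cd93 (-1.08). Of 6 follicular markers, Ccr7 was lower (-1.23), while Fcer2a (0.71) and Ighd (0.60) were higher by less than 2-fold. Of 8 B1 markers, 0 passed 2-fold, with Cd5 (-0.89), Ctla4 (0.78) and Bhlhe41 (-0.62) furthest from 0. The B cell markers Cd79b (-0.51) and Cd22 (0.47) did not pass 2-fold. In macrophage markers, Lyz2 (-3.50), Csf1r (-3.44) and Cd14 (-3.02) were lower in adult cells. The neutrophil genes S100a8 and S100a9 had 111 and 295 UMIs in neonatal cells, 2 of which held at least 3 UMIs of that list, and 0 in adult cells. Of the endothelial markers, Fabp4 was lower (-2.08) and Pecam1 was not past 2-fold (-0.23). T and NK cell markers (Cd3d 0.78, Nkg7 0.49, Cd3g -0.43) and the globin gene Hbb-bt (0.50) were not past 2-fold. Of the plasmacytoid dendritic cell markers, Ccr9 was lower (-1.17) and Pacsin1 was not past 2-fold (0.63).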
